A study of Gossypium hirsutum with 15 samples.

Results

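The change in gene expression in fibers of TM-1 between 13 and 16 days post-anthesis (DPA) was measured in 6 samples, which are 6 of the 30 dye channels in the series. TM-1 is the genetic standard line of Upland cotton (Gossypium hirsutum), and im is the immature fiber mutant, a near-isogenic line in the TM-1 background whose fibers have thin walls. On each of the 15 arrays of the series, RNA of both lines from the same stage was hybridised together in Cy5 and Cy3, with 3 arrays at each stage, every 3 days from 13 DPA to 25 DPA. The samples were therefore chosen by their line and stage labels, as the TM-1 channel of the 3 arrays at 16 DPA and of the 3 arrays at 13 DPA. The plants were field-grown and hand-pollinated, and RNA came from pools of several plants, so differences between single plants were not measured. The methods describe 3 pools per stage in one place and fewer biological replicates with a dye swap in another. Whether the 3 arrays of a stage hold separate pools is therefore not clear. In bulk fibers, a change in the share of cells at a given stage and a change in RNA per cell cannot be told apart.

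A cotton fiber is a single, greatly elongated cell of the seed coat epidermis. Elongation rests on a thin primary wall that is loosened and filled in as the cell lengthens. Towards the end of elongation the cell starts to lay down a thick secondary wall of nearly pure cellulose, made by cellulose synthase complexes in the plasma membrane, and the interval from 13 to 16 DPA lies around this transition. The 29184 cDNA probes on the array derive from ovules and fibers of Upland cotton. No table used here pairs a probe with a gene or a sequence. Probes therefore go by the names of their spots, no gene or pathway is named, and the fiber label could not be checked against marker genes.

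Which dye held TM-1 had to be taken from labels that disagree, and every direction within a line depends on it. By the source names, TM-1 was in Cy3 on replicates 1 and 3 and in Cy5 on replicate 2 at both stages, and this reading is used here. The material labels give the same reading at 13 DPA, but at 16 DPA they exchange TM-1 and im on all 3 arrays. The methods place TM-1 in the opposite dye throughout, and the dye labels show no swap at all. Log2(Cy5/Cy3) of replicate 2 correlated negatively with that of the other replicates at every stage, at -0.76 to -0.40. Between replicates 1 and 3 the correlation was 0.53 to 0.77. Correlations of this kind show a swap on replicate 2, but not which line was in which dye.

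Other measurements bear on whether the lines were exchanged at 16 DPA. Over the 8433 probes measured on all 15 arrays, dye-balanced log2(TM-1/im) at 16 DPA correlated with that at 13 DPA at 0.50 by the source names, and thus at -0.50 by the material labels. With 19 DPA, where both labels give one reading, the correlation was 0.29 by the source names and -0.29 by the material labels. These arrays share no RNA, but the points are probes of one array design and are not independent. The control spots named Y5 were brighter in the im channel on 15 of 15 arrays by the source names. At 16 and 13 DPA their median in the im channel was 65164.5 to 65460.5 units, at the top of the scanner's range, so only the sign of the difference is read. Control spots named Y6 and Y8 were brighter in the TM-1 channel on 15 of 15 arrays by the source names, whereas the sign for Y1 to Y4 and Y7 varied between arrays. The sources used here do not say what these spots hold. Probes with the same line difference at other stages were looked up at 16 DPA by the source names. All 26 probes called at 13 and 19 DPA were measured at 16 DPA. There 23 had the same sign (12 of them called at 16 DPA) and 3 the opposite one (1 called). Of 66 called at 19 and 25 DPA, 64 were measured. Of these, 47 had the same sign (16 called) and 17 the opposite one (4 called). Of 95 called at 13 and 25 DPA, 81 were measured. Of these, 22 had the same sign (6 called) and 59 the opposite one (30 called). The 4 probes called at 13, 19 and 25 DPA all had the same sign (1 called). The direction between the lines at 16 DPA is therefore given by the source names and is not settled.

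In TM-1, 213 probes changed between 16 and 13 DPA, with 106 higher and 107 lower at 16 DPA. They were 1.31% of the 16216 probes tested, or 0.654% higher and 0.66% lower. Only probes measured on 2 or 3 arrays of both stages entered the test, and those that changed 2-fold or more with a limma adjusted p under 0.05, in a fit of the separate channels of all 15 arrays, are called differentially expressed probes (DEGs). The probes that rose did so by a median of 3.60-fold and by up to 35.1-fold. The probes that fell had a median fitted change of 3.54-fold, and the falls of 9 of them are only bounds. With those at their bounds the median was 3.43-fold, and the highest fold among the others was 9.63. At an unadjusted p under 0.05 there were 1808 probes.

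Of the 106 probes that rose, 46 changed at least 4-fold, 18 at least 8-fold and 5 at least 16-fold. Of the 107 that fell, 37 had a fitted change of at least 4-fold (35 with bounds in place of fits), 2 of at least 8-fold and 0 of at least 16-fold. Falls end at the faint limit of the arrays, and 37 of the probes that fell had a faint TM-1 spot on some array at 16 DPA, so the sizes of rises and falls are not ranked against each other. The adjusted p was under 0.001 for 30 of the probes that rose and for 2 of those that fell.

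These counts depended on single arrays. Without replicate 1, 2 or 3 at 16 DPA there were 129, 135 and 195 DEGs, and without replicate 1, 2 or 3 at 13 DPA there were 87, 98 and 104. Without replicate 1, 2 or 3 at 16 DPA, 83, 68 and 86 probes rose and 46, 67 and 109 fell. Without replicate 1, 2 or 3 at 13 DPA, 68, 67 and 63 rose and 19, 31 and 41 fell. The falls were thus fewer than the rises without any 1 array at 13 DPA or without replicate 1 at 16 DPA, about equal to them without replicate 2 at 16 DPA, and more without replicate 3 at 16 DPA. Replicate 1 at 16 DPA measured the fewest probes of the 6 arrays, 14937 against 17025 and 17371 on the other 16 DPA arrays and 16792 to 19272 on the 13 DPA arrays. It was also the array among these without a negative spot flag, whereas the others had 11915 to 14564. With spots of negative flag left out on all arrays there were 159 DEGs, of which 94 rose and 65 fell. What part either difference between the arrays had in the counts was not tested.

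The median log2 change of all probes tested was -0.19 in TM-1 after normalization. With no filter on faint spots it was -0.01, with spots of negative flag left out -0.10, and without normalization between arrays -0.36. That normalization gives all arrays the same distribution of mean levels. The value without a filter therefore follows from it in large part, and the cause of the shift was not tested. Relative to the median of -0.19, 106 of the 106 probes that rose were at least 2-fold above it. Of the 107 that fell, 106 were at least 2-fold below it. The balance of rises and falls moved with the scaling. With each array centred on the probes tested, a setting chosen after seeing the data, 143 rose and 75 fell, with no filter on faint spots 216 rose and 72 fell, and with a stricter filter that asks for both dyes to reach 400 units 95 rose and 144 fell. With normexp background correction 112 rose and 150 fell, and without normalization between arrays 47 rose and 69 fell.

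The groups of 3 arrays were apart for every DEG measured on all 6 arrays. These were 98 probes whose lowest value at 16 DPA lay above the highest at 13 DPA and 96 whose highest value at 16 DPA lay below the lowest at 13 DPA. Among all 13230 probes measured on all 6 arrays, 5.48% were apart upwards and 17% downwards. The median TM-1 level over the probes that rose was 12.34, 12.58 and 12.59 on the log2 scale on replicates 1, 2 and 3 at 16 DPA, against 10.25, 10.32 and 10.05 at 13 DPA. Over the probes that fell it was 9.28, 9.69 and 9.75 at 16 DPA, against 11.53, 11.33 and 11.30 at 13 DPA. In both sets, replicates of a stage lay much closer to each other than to the other stage, which is a description because these arrays chose the probes. Across all probes, TM-1 channels of the same stage correlated at 0.872 to 0.920 and those of different stages at 0.816 to 0.901.

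Probes called from a pair of replicates were looked up on the replicate left out of the fit. If replicate 2 is a dye swap of RNA that is also on another array, the replicate left out is not always a new sample. Probes that rose without replicate 1, 2 and 3 numbered 51, 45 and 41. On the replicate left out, 49 of 51, 45 of 45 and 36 of the 37 measured were again higher at 16 DPA, by a median of 1.78, 2.14 and 2.87 on the log2 scale. Of all probes, 26.9%, 42% and 50.5% were higher at 16 DPA on those replicates. Probes that fell without replicate 1, 2 and 3 numbered 5, 25 and 14, and 4 of 4, 24 of 25 and 11 of 14 measured were again lower, where 73.1%, 58% and 49.5% of all probes were.

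Probe 384P45_E_08 was one of those named for a large rise in TM-1. Its TM-1 values were 14.51, 13.85 and 13.41 at 16 DPA, against 9.77, 10 and 9.15 at 13 DPA. The stages did not overlap, which was a condition for naming it. The mean was 13.92 ± 0.55 at 16 DPA and 9.64 ± 0.44 at 13 DPA (SD over arrays, n = 3 each). This was a 19.5-fold rise (log2 fold change 4.29, SE 0.343, adjusted p = 1e-08 in limma). In im the same probe averaged 11.12 ± 0.35 at 16 DPA and 9.39 ± 0.34 at 13 DPA, a 3.32-fold rise (adjusted p = 0.0326 in limma). By the material labels the log2 fold change in TM-1 was 1.48 and did not pass (adjusted p = 0.121).

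Probe 384P57_L_17 rose nearly as far. Its TM-1 values were 13.10, 13.56 and 13.82 at 16 DPA, against 9.58, 9.12 and 9.01 at 13 DPA, a 19.1-fold rise (log2 fold change 4.25, SE 0.412, adjusted p = 1.13e-07), against a log2 fold change of 0.88 by the material labels (adjusted p = 0.554). In im it was at 10.11 ± 0.20 at 16 DPA and 8.97 ± 0.68 at 13 DPA, and that change of 2.22-fold did not pass the test (adjusted p = 0.385). Both probes were low in both lines at 13 DPA and much brighter in TM-1 than in im at 16 DPA.

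**Figure D1:**
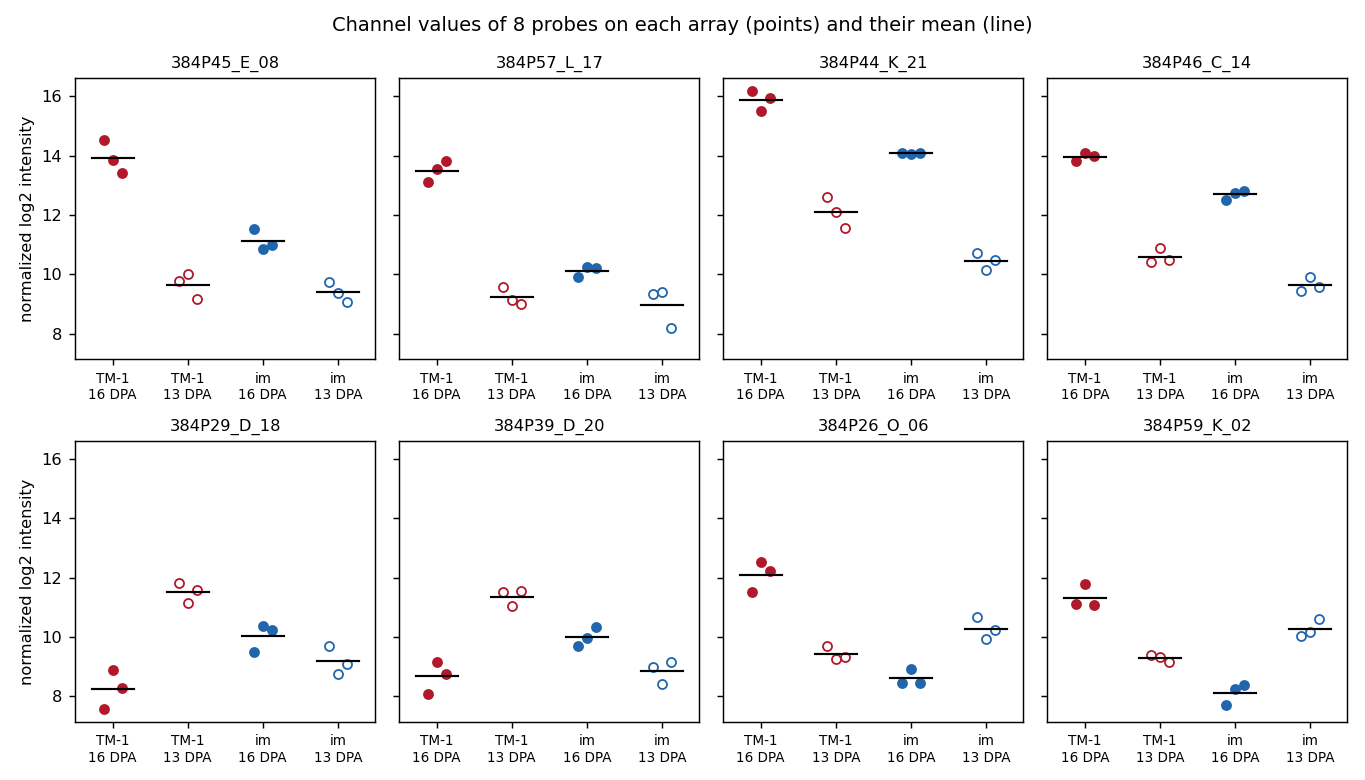
Normalized log2 intensity of 8 probes in the TM-1 and im channels at 16 DPA (filled) and 13 DPA (open), 3 arrays each, with points for arrays and a line for their mean. In the TM-1 columns the stages do not overlap for any of the 8 probes, which was a condition of the choice for those named for TM-1. Probes 384P26_O_06 and 384P59_K_02 lie above im in TM-1 at 16 DPA and below im at 13 DPA.

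Among the probes that fell, 384P29_D_18 was named for a large change in TM-1. Its TM-1 values were 7.57, 8.89 and 8.28 at 16 DPA, against 11.83, 11.14 and 11.59 at 13 DPA, a 9.63-fold fall (log2 fold change -3.27, SE 0.34, adjusted p = 6.8e-07 in limma). Its TM-1 channel was under 400 units on 2 of the 3 arrays at 16 DPA, so the size of the fall rests on faint spots. In im the values were 9.49, 10.37 and 10.23 at 16 DPA and 9.68, 8.76 and 9.09 at 13 DPA, which overlap.

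Probe 384P39_D_20 behaved much like it. Its TM-1 values were 8.09, 9.16 and 8.76 at 16 DPA, against 11.50, 11.03 and 11.55 at 13 DPA. This was a 6.45-fold fall (log2 fold change -2.69, SE 0.461, adjusted p = 0.00172 in limma). Its TM-1 channel was under 400 units on 1 of the 3 arrays at 16 DPA. The call was lost without replicate 1 of both stages (adjusted p = 0.0845) and without replicate 3 of both stages (0.0528). By the material labels the TM-1 change was -1.49 for 384P29_D_18 (adjusted p = 0.121) and -1.35 for 384P39_D_20 (adjusted p = 0.397), and neither passed. In im 384P39_D_20 averaged 10.01 ± 0.33 at 16 DPA and 8.85 ± 0.40 at 13 DPA, with an adjusted p of 0.478 in limma. Both probes were brighter in im at 16 DPA and brighter in TM-1 at 13 DPA on all 3 arrays of each stage.

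For some DEGs a stage gave only a bound, because TM-1 was under 400 units on every array of that stage that measured the probe. This held for 9 of the probes that fell and for 1 that rose. The bound sets the mean of the brighter stage against the mean of the dimmer one, with each array of the dimmer stage at the higher of the probe's own value and the lowest TM-1 value of a spot that reached 400 units. Probe 384P36_E_24 fell at least 8.12-fold (adjusted p = 0.00091 in limma), with TM-1 values of 7.84 and 8.24 on the 2 arrays at 16 DPA that measured it, against 11.98, 11.68 and 10.85 at 13 DPA. For probe 384P67_D_07 the bound equals the fitted change, so its size is an estimate and no lower limit. Its TM-1 values were 10.22, 10.53 and 11.14 at 16 DPA, against 8.41 and 8.59 on the 2 arrays at 13 DPA that measured it. It rose 4.39-fold (adjusted p = 0.0186 in limma). That call was lost without replicate 3 at 16 DPA (adjusted p = 0.0502), without replicate 3 of both stages (0.0789), with the replicate number as a block (0.0504) and without normalization between arrays (0.0793). In all, 37 of the probes that fell had a faint TM-1 spot on some array at 16 DPA, and 5 of those that rose had one at 13 DPA.

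Faint probes gave few calls in either direction. When the probes tested were ranked by mean level and cut into 4 bins of 4054, 3 rose and 2 fell in the faintest bin, against 38 and 33 in the brightest. The DEGs were spread over the slide, with 0 to 4.19% of the probes tested called in a print block and 0 to 3.21% on a clone plate.

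The same interval changed fewer probes in im. Between 16 and 13 DPA 34 probes were DEGs in im, 0.21% of those tested, with 14 higher (0.0863%) and 20 lower (0.123%) at 16 DPA and 1163 at an unadjusted p under 0.05. Leaving out any 1 array lowered the im count to between 4 and 17, the replicate number as a block to 12, and no normalization between arrays to 5. Since TM-1 and im shared each array, these tests are not independent of those in TM-1, and the difference between the lines was tested on its own as the change of log2(TM-1/im) between the stages. That change passed for 817 probes, 5.04% of those tested, with 495 in which TM-1 changed upwards relative to im (3.05%) and 322 in which it changed downwards (1.99%). The ratio is taken within a spot, whereas the test within TM-1 compares channels of different arrays.

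Most probes that rose in TM-1 changed less than 2-fold in im. Of the 106, 75 passed the test of the difference between the lines, all upwards in TM-1 relative to im. Of all probes, 3.05% did. In im, 30 of the 106 were at least 2-fold higher at 16 DPA, 4 were at least 2-fold lower and 72 changed less than 2-fold, where 1.17% and 4.02% of all probes were at least 2-fold higher and lower. The median log2 change over the 106 probes was 1.85 in TM-1 and 0.54 in im, and 11 were DEGs in im in the same direction and 1 in the opposite direction.

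The probes that fell in TM-1 were set beside im in the same way. A faint TM-1 spot at 16 DPA can limit the difference between the lines too. The share that passed is therefore not ranked against that of the probes that rose. Of the 107, 29 passed the test of the difference, all of them downwards in TM-1 relative to im, where 1.99% of all probes did. In im, 58 were at least 2-fold lower at 16 DPA, 5 were at least 2-fold higher and 44 changed less than 2-fold. Of all probes, 4.02% were at least 2-fold lower in im and 1.17% at least 2-fold higher. The median log2 change was -1.82 in TM-1 and -1.06 in im, and 97 of the 107 changes in im were below 0. Over all probes tested the median in im was -0.16, so most of all probes were below 0 in im as well. These counts use the TM-1 channels that chose the probes, so they describe the probes and were not tested against each other. The im channel lies on the same spots (intraspot correlation 0.8622), so its changes are not independent of those in TM-1.

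**Figure D2:**
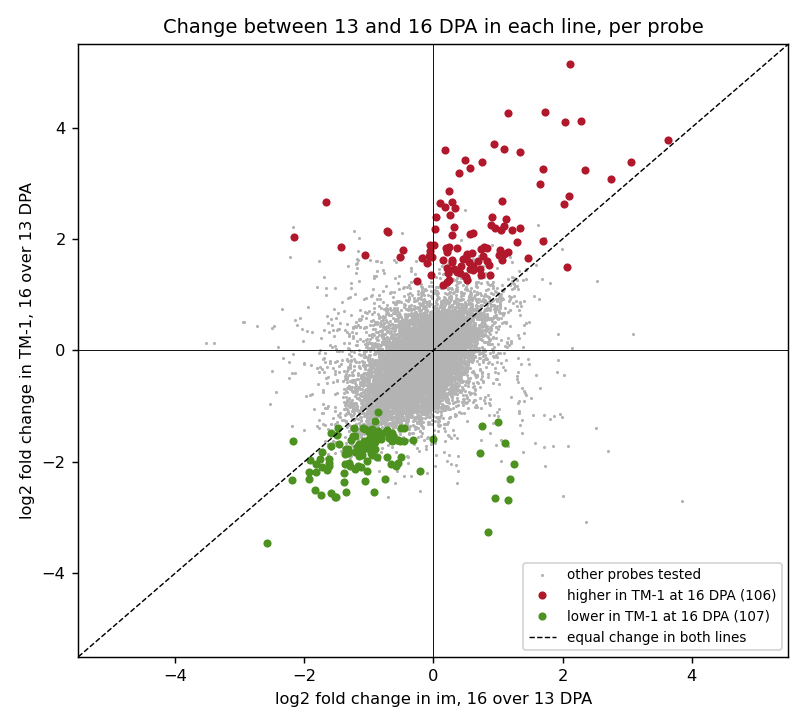
Log2 fold change of each probe tested between 16 and 13 DPA in TM-1 (vertical) and in im (horizontal), with the 106 probes that rose and the 107 that fell in TM-1 coloured and the dashed line at equal change. Most probes that rose lie well above the dashed line, whereas many that fell lie near it in the lower left.

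The line ratio showed this on every array. Over the 106 probes that rose, the median log2(TM-1/im) was 1.78, 1.76 and 1.69 on the 3 arrays at 16 DPA, against 0.27, 0.36 and 0.32 at 13 DPA. Over the 107 that fell it was -0.83, -0.75 and -0.84 at 16 DPA, against -0.08, -0.05 and -0.02 at 13 DPA. The medians of the lines were close to each other in both sets at 13 DPA and apart at 16 DPA. The values at these stages chose the probes and are a description.

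**Figure D3:**
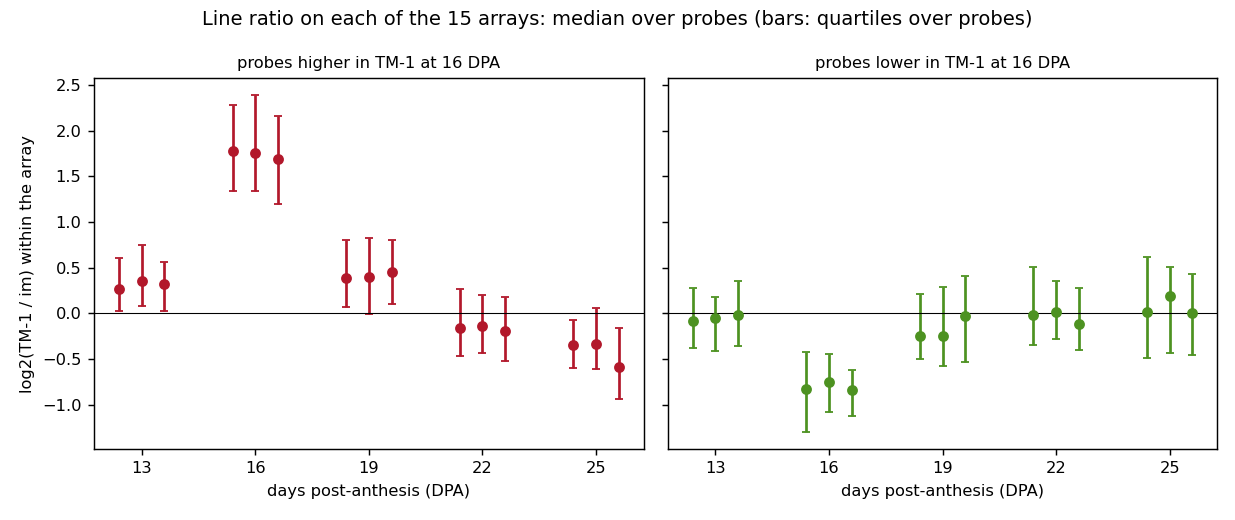
Log2(TM-1/im) on each of the 15 arrays against days post-anthesis, as the median (point) and quartiles (bars) over the probes that rose and over those that fell in TM-1 between 13 and 16 DPA. The medians of the probes that rose lie between 1.69 and 1.78 at 16 DPA and at 0.454 or below on the arrays of the other stages.

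In the probes with the largest difference between the lines, the line that was brighter at 16 DPA was the dimmer one at 13 DPA. Probe 384P26_O_06 had TM-1 values of 11.53, 12.53 and 12.22 at 16 DPA, against 9.69, 9.25 and 9.32 at 13 DPA, whereas its im values were 8.43, 8.92 and 8.46 at 16 DPA, against 10.66, 9.93 and 10.22 at 13 DPA. The change in TM-1 exceeded that in im by 4.34 on the log2 scale (SE 0.195, adjusted p = 6.2e-09 in limma). The line ratio was 3.10, 3.60 and 3.75 at 16 DPA, against -0.97, -0.69 and -0.90 at 13 DPA, so TM-1 was the brighter line at 16 DPA and im at 13 DPA. Within each line the probe was 6.37-fold higher in TM-1 (adjusted p = 2.4e-05) and 3.17-fold lower in im (adjusted p = 0.0415) at 16 DPA. Its im channel was under 400 units on 1 of the 3 arrays at 16 DPA.

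Probe 384P59_K_02, which rose 4.11-fold in TM-1 (adjusted p = 0.0475) and did not pass in im (adjusted p = 0.0876), had a line ratio of 3.41, 3.52 and 2.70 at 16 DPA, against -0.65, -0.85 and -1.47 at 13 DPA (difference 4.20, SE 0.296, adjusted p = 4.68e-07). Its im channel was under 400 units on 2 of the 3 arrays at 16 DPA, so the size of the difference rests on faint spots. In the other direction, 384P29_D_18 changed by -4.12 (SE 0.178, adjusted p = 6.2e-09) and 384P39_D_20 by -3.85 (SE 0.251, adjusted p = 4.68e-07). For 384P29_D_18 the line ratio was -1.92, -1.47 and -1.95 at 16 DPA, against 2.15, 2.38 and 2.49 at 13 DPA. For these 4 probes an exchange of the lines at 16 DPA would turn the sign of the ratio at that stage, and by the material labels the differences became -2.63 for 384P26_O_06, -2.22 for 384P59_K_02, -0.56 for 384P29_D_18 and -1.17 for 384P39_D_20.

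The mean of both lines does not depend on which line was in which dye, but a large change in either line can carry it. Tested as the mean of both channels, 36 probes differed between 16 and 13 DPA, 0.222% of those tested, with 28 higher (0.173%) and 8 lower (0.0493%) at 16 DPA and 1130 at an unadjusted p under 0.05. All 28 were also among the 106 probes that rose in TM-1, and all 8 among the 107 that fell. That is a count over the same channels and no second test. A call on the mean does not show a change in each line. Of the 106 probes, 11 were DEGs in im in the same direction, and of the 107, 5. Probe 384P57_L_17 passed on the mean (adjusted p = 0.000331 in limma) but not in im (adjusted p = 0.385).

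Probe 384P44_K_21 was named for its rise in the mean of both lines. Its TM-1 channel was saturated on all 3 arrays at 16 DPA. Its normalized TM-1 values were 16.17, 15.50 and 15.93 at 16 DPA, against 12.61, 12.11 and 11.56 at 13 DPA. The probe's fitted rise in TM-1, 13.7-fold, rests on saturated readings, so its size is not exact. In im, which was not saturated, it had 14.09, 14.05 and 14.10 at 16 DPA, against 10.70, 10.15 and 10.47 at 13 DPA, a 12.5-fold rise (adjusted p = 1.83e-05 in limma). No other probe that rose was saturated in TM-1 at these stages.

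Probe 384P46_C_14 rose 10.4-fold in TM-1 (adjusted p = 3.82e-07) and 8.32-fold in im (adjusted p = 1.56e-05). TM-1 averaged 13.96 ± 0.14 at 16 DPA and 10.59 ± 0.26 at 13 DPA, whereas im averaged 12.69 ± 0.16 at 16 DPA and 9.63 ± 0.25 at 13 DPA (SD, n = 3 each). The change in TM-1 exceeded that in im by 0.32 on the log2 scale with an SE of 0.216, which did not pass the test (adjusted p = 0.408).

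Among probes that fell in both lines, 384P65_M_17 was 4.99-fold lower in TM-1 (adjusted p = 0.00777) and 4.56-fold lower in im (adjusted p = 0.0479) at 16 DPA. Its TM-1 values were 9.29, 9.35 and 8.95 at 16 DPA, against 11.43, 12.30 and 10.82 at 13 DPA. Probe 384P19_D_17 was 4.98-fold lower in TM-1 (adjusted p = 0.00254) and 3.80-fold lower in im (adjusted p = 0.0408), and it was left out as faint on all arrays at 19 and 22 DPA. Tested as the mean of both lines, 384P65_M_17 lost the call in 8 of 24 settings (adjusted p up to 0.319) and 384P19_D_17 in 6 of 24 (up to 0.372), and all but 1 of these settings left out an array or a replicate.

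The levels at 19, 22 and 25 DPA were no part of the contrast that chose the probes, although their arrays entered the normalization and the estimate of the spread. Over the 106 probes that rose, the median TM-1 level stood at 10.15 at 13 DPA, 12.55 at 16 DPA, 12.85 at 19 DPA, 12.40 at 22 DPA and 11.89 at 25 DPA. In im it was 9.90, 10.63, 12.58, 12.39 and 12.46 at the same stages. The median in im was thus below that in TM-1 by the widest margin at 16 DPA and closer to it at the later stages. By the material labels, which exchange the lines at 16 and 22 DPA, the 16 DPA value of 12.55 would belong to im and that of 10.63 to TM-1.

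Counted by probe, the TM-1 level at 19 DPA was nearer to TM-1's level at 16 DPA than to that at 13 DPA for 98 of the 106 probes, at 22 DPA for 89 of 105 and at 25 DPA for 71 of 103. The im level was nearer to TM-1's 16 DPA level for 8 of 106 probes at 16 DPA, for 94 of 106 at 19 DPA, for 92 of 105 at 22 DPA and for 86 of 103 at 25 DPA. Of the 105 probes measured at all stages, TM-1 was highest at 16 DPA for 24, at 19 DPA for 57, at 22 DPA for 16 and at 25 DPA for 8. In im, 0 were highest at 16 DPA, 47 at 19 DPA, 30 at 22 DPA and 28 at 25 DPA.

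The following interval was tested in im after these levels had been seen. Between 19 and 16 DPA, 76 of the 106 probes that had risen in TM-1 by 16 DPA were DEGs higher in im at 19 DPA and 0 were lower, where 4.35% of all 13789 probes tested were higher and 5.09% lower. Their median log2 change in im was 1.74, against a median of -0.15 over all probes tested. In TM-1, 20 of the same 106 probes were higher at 19 DPA and 8 lower, where 4.17% and 8.01% of all probes were. Of the probes that fell in TM-1, 77 were tested in this interval. In im 2 of them were higher and 17 lower at 19 DPA, and in TM-1 14 were higher and 14 lower. The im channels at 16 DPA share arrays with the TM-1 channels that were compared to choose the probes, but those at 19 DPA do not. By the material labels the channels read here as im at 16 DPA would be those of TM-1, so these counts depend on the reading of the labels.

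**Figure D4:**
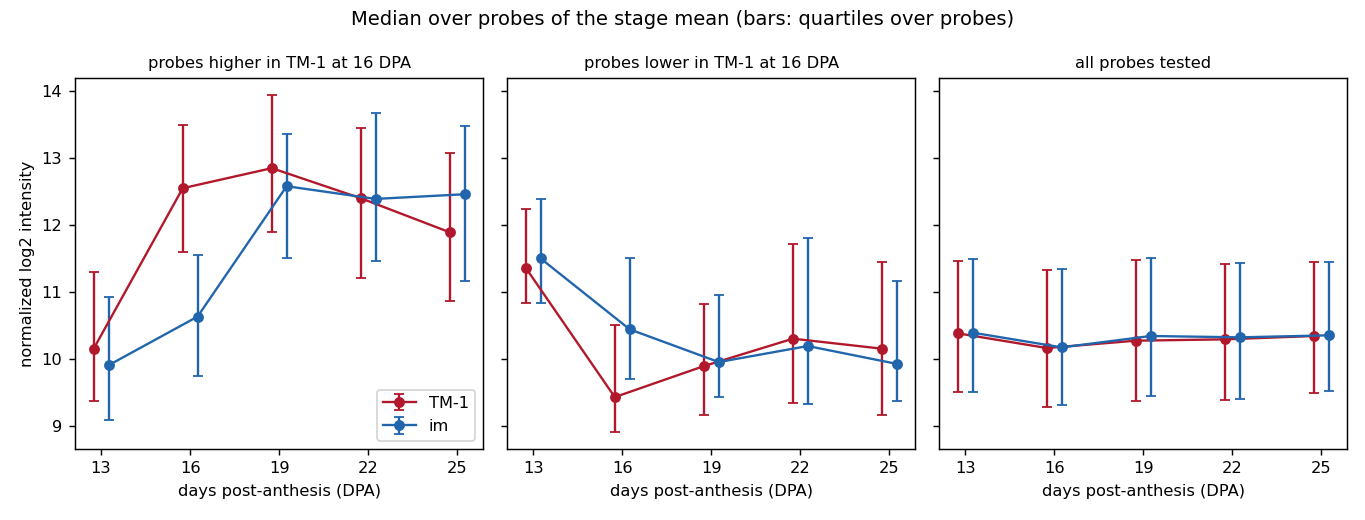
Normalized log2 intensity against days post-anthesis in TM-1 and im, as the median (point) and quartiles (bars) over probes of the mean of each stage, for the 106 probes that rose in TM-1 at 16 DPA, the 107 that fell, and all probes tested. In the left panel TM-1 reaches 12.55 at 16 DPA, where im is at 10.63, and im reaches 12.58 at 19 DPA.

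Of the named probes, 384P57_L_17 and 384P45_E_08 were brighter in im at 19 than at 16 DPA, as the medians were. Probe 384P57_L_17 averaged 9.24, 13.49, 15.17, 13.98 and 12.70 in TM-1 from 13 DPA to 25 DPA, and 8.97, 10.11, 14.55, 14.40 and 13.18 in im. For 384P45_E_08 the TM-1 means in the same order were 9.64, 13.92, 14.08, 13.62 and 13.34, and the im means were 9.39, 11.12, 13.31, 14.15 and 13.84. For both, TM-1 was above im at 16 and 19 DPA and below it at 22 and 25 DPA. Probe 384P59_K_02 took another course, with TM-1 means of 9.28, 11.32, 9.11, 10.02 and 12.05 and im means of 10.27, 8.11, 9.89, 11.44 and 11.79, so that TM-1 at 19 DPA was back near its level at 13 DPA.

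For the probes that fell, later stages were measured in part. Their median in TM-1 over the 5 stages in time order was 11.36, 9.43, 9.89, 10.30 and 10.15, against 11.50, 10.44, 9.95, 10.19 and 9.92 in im. At 19, 22 and 25 DPA 77, 72 and 78 of the 107 were measured on enough arrays, and those left out were faint, so the later medians and counts leave out the lowest levels. Of those measured, 56, 43 and 48 were nearer in TM-1 to the 16 DPA level than to the 13 DPA level. Probe 384P29_D_18 returned to 11.91 ± 0.15 in TM-1 at 22 DPA and 11.30 ± 0.40 at 25 DPA (SD, n = 3 each), close to its 11.52 ± 0.35 at 13 DPA.

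The reading of the labels changed the count in TM-1 most. By the material labels, 3 probes were higher and 2 lower in TM-1 at 16 DPA than at 13 DPA, and 891 probes changed in im. By the methods' dyes 14 were higher and 20 lower in TM-1, and by the dye labels as written limma called 0 in TM-1, with 903 at an unadjusted p under 0.05.

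**Figure D5:**
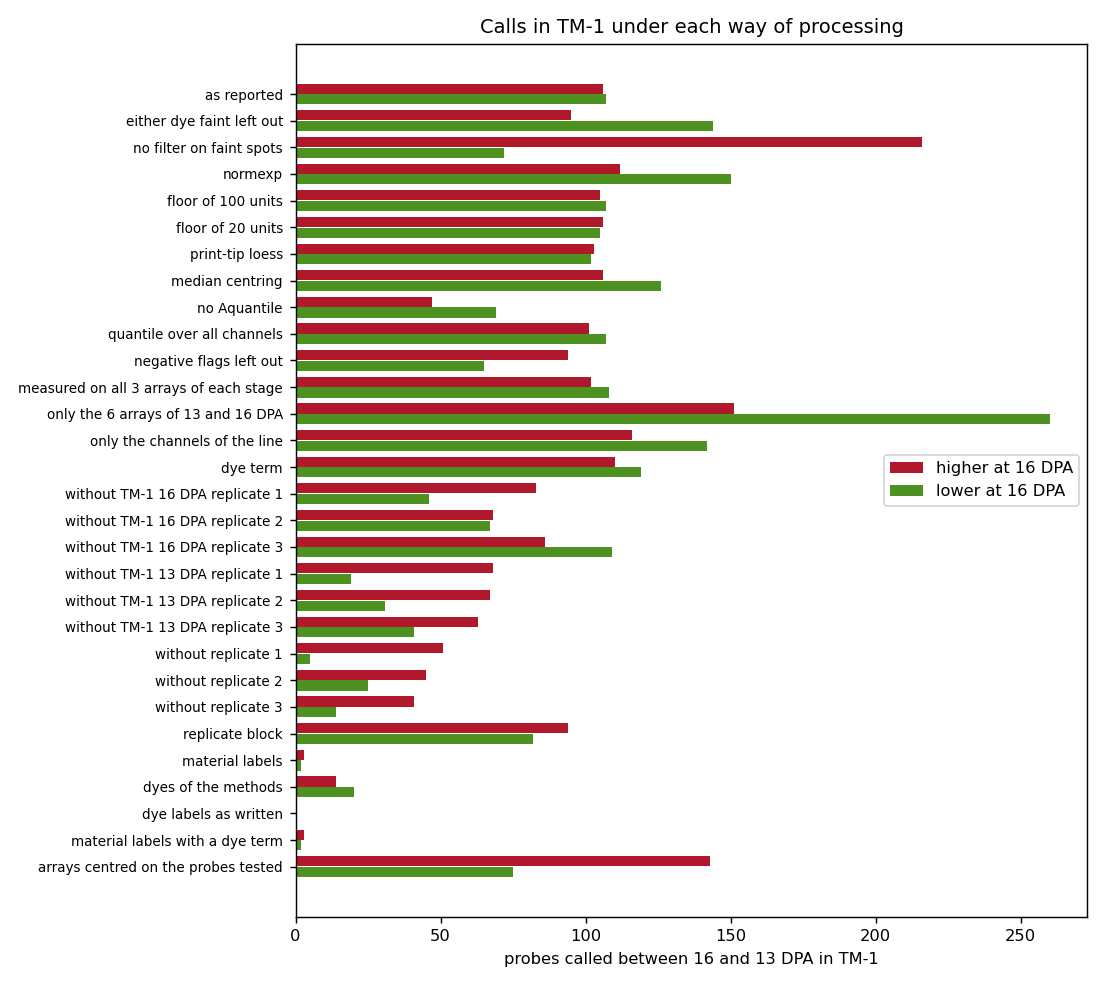
Number of probes called higher and lower at 16 DPA than at 13 DPA in TM-1 under each way of processing, as bars from 0. The counts are 106 and 107 as reported, and 0 to 14 higher and 0 to 20 lower when the labels are read as the material labels, the methods or the dye labels give them.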

How the data were processed

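Fibers of TM-1 and im were compared on 15 dual-dye cDNA arrays. The authors read the scans with LuxScan and deposited, per spot, the median intensity in each dye after local background subtraction. The deposited value table holds the authors' log2 ratios of Cy5 over Cy3 and served as an alternative. It correlated with the intensities at 0.959 to 0.996. The methods name LOWESS and Aquantile normalization, but whether this table is their output is not stated. For the authors' own processing, the submitters' notes list R 2.12.2 and limma 3.4.5.

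The present values were computed with limma 3.58.1 in R 4.3.3. The 816 control spots were left out, values under 50 units were raised to 50, and spots with neither dye at 400 units or more were removed, as the methods' filter can be read. Loess within arrays and Aquantile between arrays followed. TM-1, im and their mean were tested in separate-channel fits over all 15 arrays (array as block, intraspot correlation 0.8622), and the line difference was tested on log2(TM-1/im). Benjamini-Hochberg adjustment ran over the 16216 probes tested. Every adjusted p is from limma.

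The probes named are those with the largest fold change, 2 per direction and comparison, among DEGs measured on all 6 arrays whose stages do not overlap and whose channels reached 400 units at each stage, plus 1 bound per direction. The probe lists, the tests and the reading of the labels by source names were chosen with earlier results of these data known. The fits were tested on simulated data. Alternatives covered the filter, the background, the normalization, the probes and arrays fitted, a dye term, the labels and the replicates. Replicate numbers did not enter the fits, and whether a dye swap reused an RNA extract is not clear from the methods, so p-values may measure technical spread in part. The number of arrays limits the precision.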

Additional observations from a re-analysis of the deposited data

Results flagged for a closer look

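The change from 13 to 16 DPA differed between TM-1 and im, by the test of the difference itself, for 817 probes. Of the named probes, the change in TM-1 minus the change in im was 4.34 on the log2 scale for 384P26_O_06 and 4.20 for 384P59_K_02. It was -4.12 for 384P29_D_18 and -3.85 for 384P39_D_20. The line ratio changed in these directions on all 3 arrays of each stage. All of these values depend on the reading of the labels at 16 DPA, and with the methods' dyes their signs turn.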

How the results depend on the processing

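The reading of the labels moved the results most. With the material labels, 5 probes changed in TM-1 (3 higher and 2 lower at 16 DPA) and 891 in im, and the change differed between the lines for 3364 probes. With these labels and a dye term, added after seeing the data, the counts were 5, 940 and 3441. With the methods' dyes the lines trade places, so that 34 probes changed in TM-1 and 213 in im, and all 817 differences between the lines turned sign. With the dye labels as written, limma called 0 in TM-1, 0 in im and 0 between the lines, with 903, 706 and 54 at an unadjusted p under 0.05. By the material labels the difference between the lines was -2.63 for 384P26_O_06, -2.22 for 384P59_K_02, -0.56 for 384P29_D_18 (under 2-fold) and -1.17 for 384P39_D_20, and with a dye term -2.65, -2.21, -0.56 and -1.18, and the TM-1 change of 384P67_D_07 was -0.46 and -0.50. By the methods' dyes the TM-1 change was 0.85 for 384P29_D_18, 1.16 for 384P39_D_20 and -0.70 for 384P67_D_07, and the differences between the lines were -4.34 for 384P26_O_06, -4.20 for 384P59_K_02, 4.12 for 384P29_D_18 and 3.85 for 384P39_D_20.

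Of the other alternatives, TM-1 gave 116 DEGs without normalization between arrays and 411 with only the 6 arrays in the fit, of which 116 and 204 were among the 213. The mean of both lines gave 21 and 84 in these settings, 103 when faint spots were kept and 57 with normexp. In im there were 5 and 54, 62 when faint spots were kept, 15 when both dyes had to reach 400 units, 19 without negative flags and 82 from the im channels alone. Leaving out a replicate gave 55 to 195 DEGs in TM-1, 540 to 905 between the lines, 14 to 36 for the mean of both lines and 4 to 17 in im. With the replicate number as a block, TM-1 had 176, the line difference 855, the mean of both lines 29 and im 12. Arrays with the same number deviated together at 0.08, 0.02 and 0.24 (r), so the numbers were not taken to pair the samples. The cause of these differences was not tested. Over the named probes, 306 of 362 values kept their direction and call, 43 lost the call and 13 turned sign. Some settings could not move a value, as normalization between arrays leaves the ratio within a spot unchanged. These counts are therefore not counts of independent checks.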
